A study of Mus musculus with 4 samples.

Results

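The 10 genes described here encode the MHC class II antigen presentation unit of the mouse: the classical chains H2-Aa, H2-Ab1 and H2-Eb1, the invariant chain Cd74, the coactivator Ciita, the peptide editor H2-DMa, H2-DMb1 and H2-DMb2, and its inhibitor H2-Oa and H2-Ob. They were taken by gene symbol from 33696 measured genes, all 10 were found, and each was read by library in macrophages, monocytes, dendritic cells and B cells. Male C57BL/6J mice were fed from 7 weeks of age with the FPC diet (fructose, palmitate, cholesterol and trans-fat), which models metabolic dysfunction-associated steatohepatitis. The diet held 1.25% cholesterol (P-HC24) or 0.05% cholesterol (P-LC24) up to week 24, and both arms then received 0.05% cholesterol for 8 weeks, giving I-HC32 and I-LC32 at week 32. All mice thus received the FPC diet at every time point, and no group was on chow. Liver cells were collected by image-guided fine-needle aspiration from 3 mice per arm, the same mice at both weeks, and their biopsies were pooled, so that each condition was 1 library of 10x single-cell 3′ RNA-seq.

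The high-cholesterol arm was set against the low-cholesterol arm at week 24 (Prog) and at week 32 (Int), to ask how cholesterol and its withdrawal bear on antigen presentation in each cell type. With 1 library per condition there is no replicate error and no test. Intervals are exact 95% intervals for the counting of UMIs (unique molecular identifiers, 1 per captured transcript) only, and a gene is called higher or lower where the ratio of its levels reached 1.2-fold, the fold the study used. Levels are UMIs per 1000000 UMIs of a cell class (CPM). They are not scaled by transcript length, since 3′ counting reads 1 end of each transcript. After filtering, 4930 to 6978 cells per library remained with 38509673 to 77017579 UMIs, and pairs of libraries shared 17 to 41 barcodes.

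Antigen-presenting cells load peptides from endosomes onto class II heterodimers and show them to CD4 T cells. The invariant chain Cd74 holds the groove until its last fragment is exchanged for a peptide by H2-DM, and H2-O restrains H2-DM. Transcription of the classical chains depends on the coactivator Ciita, which binds no DNA itself but joins factors on the W, X and Y boxes of the promoters. In the liver, class II is known from dendritic cells, B cells, monocyte-derived macrophages and, at lower levels, resident Kupffer cells.

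Of the members, 8 lay within 224 kb of chromosome 17 of GRCm39, from 34311314 to 34535648, in the order H2-Oa, H2-DMa, H2-DMb2, H2-DMb1, H2-Ob, H2-Ab1, H2-Aa and H2-Eb1. Cd74 and Ciita lay on other chromosomes. H2-Aa is the only one of the 8 on the minus strand, and its annotated span overlaps that of H2-Eb1 by 2563 bases. The promoters below are those of members on chromosome 17. They are the 150 bases before the RefSeq start (GRCm38.p6 table), matched letter for letter to GRCm39 chromosome 17 and written 5′ to 3′ in the direction of the gene, with capitals marking AACNNATG (part of the X box) and TGATTGG (the core of the Y box, which holds the reverse of CCAAT).

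H2-Aa (chr17:34506798-34506947, minus strand): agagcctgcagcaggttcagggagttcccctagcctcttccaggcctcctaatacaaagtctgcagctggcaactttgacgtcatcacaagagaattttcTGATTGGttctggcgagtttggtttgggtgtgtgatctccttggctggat
H2-Eb1 (chr17:34524691-34524840, plus strand): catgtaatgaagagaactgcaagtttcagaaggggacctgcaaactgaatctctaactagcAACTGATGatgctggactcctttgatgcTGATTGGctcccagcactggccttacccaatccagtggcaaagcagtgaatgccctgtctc
H2-DMb1 (chr17:34372015-34372164, plus strand): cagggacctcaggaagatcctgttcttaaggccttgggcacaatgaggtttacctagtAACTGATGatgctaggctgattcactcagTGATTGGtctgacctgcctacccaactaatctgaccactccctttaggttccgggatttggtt
H2-DMb2 (chr17:34364073-34364222, plus strand): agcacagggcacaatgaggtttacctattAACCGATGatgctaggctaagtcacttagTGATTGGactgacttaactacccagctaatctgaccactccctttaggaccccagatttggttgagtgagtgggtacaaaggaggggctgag
H2-Oa (chr17:34311203-34311352, plus strand): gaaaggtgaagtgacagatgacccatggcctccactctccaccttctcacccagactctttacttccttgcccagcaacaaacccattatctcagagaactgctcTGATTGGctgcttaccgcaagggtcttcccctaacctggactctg
H2-Ob (chr17:34457729-34457878, plus strand): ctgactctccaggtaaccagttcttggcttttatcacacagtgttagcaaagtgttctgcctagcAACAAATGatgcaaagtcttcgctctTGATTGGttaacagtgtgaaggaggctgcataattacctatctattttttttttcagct

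A promoter was given for 7 of the 10 members, and none was given for H2-Ab1, Cd74 and Ciita. Motifs were searched in the 250 bases before the start, of which 150 are printed above. On either strand, TGATTGG stood in 6 of the 7, in all but H2-DMa, against 7.23% of 32851 promoters of the table. AACNNATG stood in H2-Eb1, H2-DMb1, H2-DMb2 and H2-Ob, against 7.71%. AACNNATG followed by TGATTGG on the strand of the gene, with 15 to 40 bases between them, was found in 13 promoters of the table (0.0396%). Among them were those same 4 members and H2-Eb2. The motifs were chosen after the sequences were seen and are matches of letters, not measured binding. H2-DMb1 and H2-DMb2, which lie next to each other, both held the pair of motifs, and their levels by cell type are set side by side further on.

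Cd209a cells, gated on the lectin Cd209a of conventional and monocyte-derived dendritic cells, had the highest levels of the summed H2-Aa, H2-Ab1, H2-Eb1 and Cd74 (the core sum), followed by B cells, monocytes and macrophages. No class II gene was used in any gate. Over libraries with at least 20 cells of the class, the median core sum was 51719 CPM in Cd209a cells (48170 to 55268, 2 libraries). It was 17495 CPM in B cells (14677 to 18057), 4952 CPM in patrolling monocytes (2066 to 5864), 1580 CPM in classical monocytes (613.3 to 2263) and 1538 CPM in macrophages (738 to 3641). NK cells (126 to 470 CPM), neutrophils (172 to 235 CPM in 3 libraries) and T cells (59.98 to 344 CPM) stood below them. The ranges of classical monocytes and macrophages overlapped, those of patrolling and classical monocytes overlapped narrowly, and those of Cd209a cells, B cells and all monocytes and macrophages did not overlap. This order is one of sums over a class. In monocytes and macrophages the median single cell lay well below the sum, as given further on.

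The class named macrophages was gated on Csf1r, Adgre1 and genes of resident macrophages such as the C1q subunits. It numbered 43 and 417 cells in P-LC24 and P-HC24 at week 24, and 67 and 588 cells in I-LC32 and I-HC32 at week 32. They held Gata6, the factor of large peritoneal macrophages, at 75.2 to 105.5 CPM, and 69.8% to 81.8% of them had a Gata6 UMI. Clec4f, the marker of Kupffer cells, had UMIs in 1 of 43 cells in P-LC24 and in 0 cells of P-HC24, I-LC32 and I-HC32 (Clopper-Pearson upper limits 0.881%, 5.36% and 0.625%), so the defining marker of liver resident macrophages was at or near 0 and the values below are those of the gated cells, not of Kupffer cells. Of the other gates, patrolling monocytes (Ace or Treml4) held 67 to 109 cells, classical monocytes (Ly6c2 and Ccr2) 21 to 99, Cd209a cells 14 to 38 and B cells 3067 to 4546. Cd209a cells of I-LC32 and I-HC32 held Flt3, the growth factor receptor of dendritic cells, at 117 and 187 CPM and Ccr2 at 686.5 and 429.7 CPM.

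Among classes with at least 20 cells in a library, the classical chains and the invariant chain were highest in Cd209a cells and next highest in B cells. The rarer cDC1, given further on, lay above B cells for H2-Aa and Cd74. H2-Aa, the alpha chain of I-A, was at 6597, 12127, 9090 and 10248 CPM in Cd209a cells. Lists of 4 values here give P-LC24 and P-HC24 first, followed by I-LC32 and I-HC32. It was at 2632, 3038, 2985 and 2745 CPM in B cells, so every Cd209a value lay above every B cell value. H2-Ab1, the beta chain of I-A, was at 6219, 10406, 7965 and 9096 CPM in Cd209a cells and 1804 to 2177 CPM in B cells. H2-Eb1, the beta chain of I-E, reached 6186 to 10586 CPM and 2168 to 2406 CPM in these classes. Its partner H2-Ea, which is inactivated in C57BL/6 mice, had 5, 1, 7 and 3 UMIs in B cells. Cd74, encoded at chr18:60936899-60945731, was at 14718, 28787, 23382 and 26660 CPM in Cd209a cells and 7921, 10163, 10759 and 10269 CPM in B cells. The 2 Cd209a libraries of week 24 hold 14 and 19 cells and are given as values only.

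Ciita, the coactivator, is encoded at chr16:10297923-10347694. Among classes with at least 20 cells in a library, it was also highest in Cd209a cells. The rarer cDC1, given further on, lay outside this ranking and reached a higher Ciita level. In Cd209a cells it was at 329, 84.6, 222 and 163 CPM and in B cells at 110.2, 51.6, 72.8 and 70.2 CPM. It was at 9.42 to 43.3 CPM in patrolling monocytes, 5.36 to 29.3 CPM in classical monocytes and 2.59, 3.75, 27.5 and 3.02 CPM in macrophages. The macrophage values rest on 3, 35, 46 and 38 UMIs, and the one library that stood out among them was I-LC32. In T cells, which should lack it, Ciita was at 0.114 to 2.01 CPM. With every cell thinned to 3000 UMIs, a Ciita UMI was seen in 29.1, 14.8, 19.4 and 18.4% of B cells, 0, 1.68, 8.96 and 0% of macrophages and 0, 0.194, 0.270 and 0.209% of T cells. Where the share was 0, a count of 0 allows up to 6.98% of macrophages in P-LC24, 0.512% in I-HC32 and 0.308% of T cells in P-LC24. At this depth the macrophages of I-LC32 stood clear of T cells, and those of I-HC32 did not. Without thinning, 4.65, 5.04, 20.9 and 3.23% of macrophages had a Ciita UMI, at a median depth of 20712.5 to 26203 UMIs per cell.

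The genes of H2-DM and H2-O set the classes apart in another way. H2-DMa, the alpha chain of the editor, was at 692 to 920.1 CPM in Cd209a cells, 277 to 342 CPM in B cells, 187 to 219 CPM in classical monocytes and 81.3 to 163 CPM in macrophages, a narrower spread over classes than that of the classical chains. H2-DMb1 was at 537 to 783 CPM in Cd209a cells, 80.3 to 197 CPM in classical monocytes, 56.5 to 144 CPM in patrolling monocytes and 65.6 to 96.9 CPM in B cells, so B cells were not above monocytes for this gene. H2-DMb2, the second beta chain, was at 366 to 407 CPM in B cells, 111 to 210.4 CPM in Cd209a cells and 2.54 to 5.98 CPM in macrophages. H2-Oa was at 88.3 to 132 CPM in B cells and 127 to 236 CPM in Cd209a cells, ranges that overlapped only through I-LC32. H2-Ob was at 232 to 358 CPM in B cells and 91.7 to 111 CPM in Cd209a cells, with every B cell value above every Cd209a value. In macrophages H2-Oa was at 0.865 to 2.99 CPM and H2-Ob at 3.65 to 6.05 CPM.

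**Figure D1:**
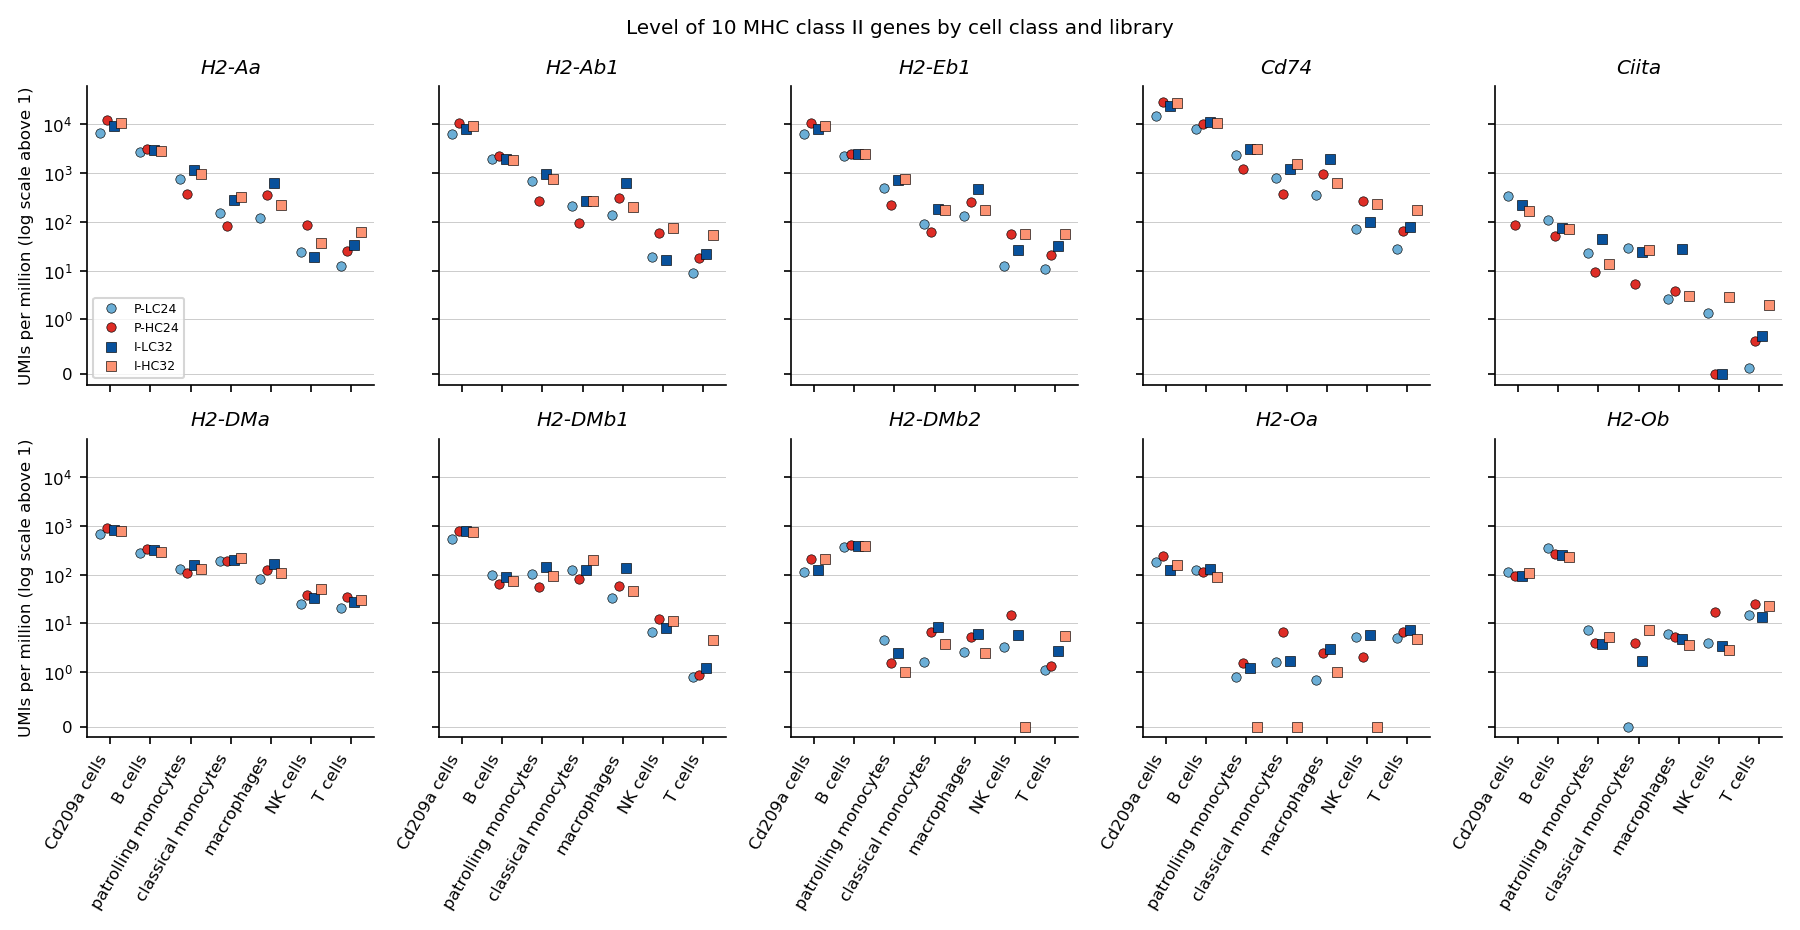
Level of each of the 10 genes (y axis, CPM, log scale above 1 and linear below) in 7 cell classes (x axis), with 1 point per library. Cd209a cells and B cells sit highest for all genes but H2-DMb1, while H2-DMb2, H2-Oa and H2-Ob drop to 10 CPM or less in monocytes and macrophages.

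Gated macrophages of the high-cholesterol arm held more class II RNA at week 24 and less at week 32 than those of the low-cholesterol arm, and the week 24 direction depended on which cells were counted as macrophages. At week 24 the core sum was 738 CPM (95% interval 689 to 788.9) in P-LC24 and 1864 CPM (1837 to 1892) in P-HC24. At week 32 it was 3641 CPM (3550 to 3734) in I-LC32 and 1212 CPM (1192 to 1231) in I-HC32. The low-cholesterol arm thus gave both the lowest and the highest value. The log2 ratio was 1.34 (95% interval 1.24 to 1.44) in Prog and -1.59 (95% interval -1.63 to -1.54) in Int. Of the 10 members, 6 had enough UMIs to be compared, all 6 were higher in Prog against 17.0% of 7221 genes, and all 6 were lower in Int against 35.1% of 8206 genes. Their median log2 ratio was 1.04 in Prog and -1.53 in Int, beside -0.20 and -0.13 for all genes compared. Ciita, H2-DMb2, H2-Oa and H2-Ob stayed under the limit of 100 UMIs or 10% of cells. None of the 6 was lower in Prog, where 45.3% of genes were, and none was higher in Int, where 14.8% were.

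Among the single genes, H2-Aa was at 121, 358, 618 and 217 CPM, a log2 ratio of 1.57 (95% interval 1.32 to 1.82) in Prog and -1.51 (95% interval -1.62 to -1.41) in Int. Cd74 was at 348, 951, 1933 and 619 CPM, with 1.45 (95% interval 1.31 to 1.60) and -1.64 (95% interval -1.70 to -1.58). H2-Ab1 was at 135, 299.9, 613 and 203 CPM and H2-Eb1 at 133, 255, 476 and 173 CPM, with Prog ratios of 1.15 and 0.94 and Int ratios of -1.60 and -1.46. The chains of the presenting molecule and the chaperone that guards it all passed 1.2-fold in both comparisons, in opposite directions. H2-DMa, the editor chain, had the ratios closest to 0 of the 6, at 81.3, 124, 163 and 109 CPM with 0.61 (95% interval 0.31 to 0.93) in Prog and -0.58 (95% interval -0.76 to -0.38) in Int. H2-DMb1 was at 33.7, 57.9, 136 and 46.1 CPM, with 0.78 (95% interval 0.31 to 1.29) and -1.56 (95% interval -1.78 to -1.33). Read along each arm, the core sum of macrophages was lower at week 32 than at week 24 in the high-cholesterol arm (-0.62) and higher in the low-cholesterol arm (2.30), both on the log2 scale and in the same mice sampled again.

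**Figure D2:**
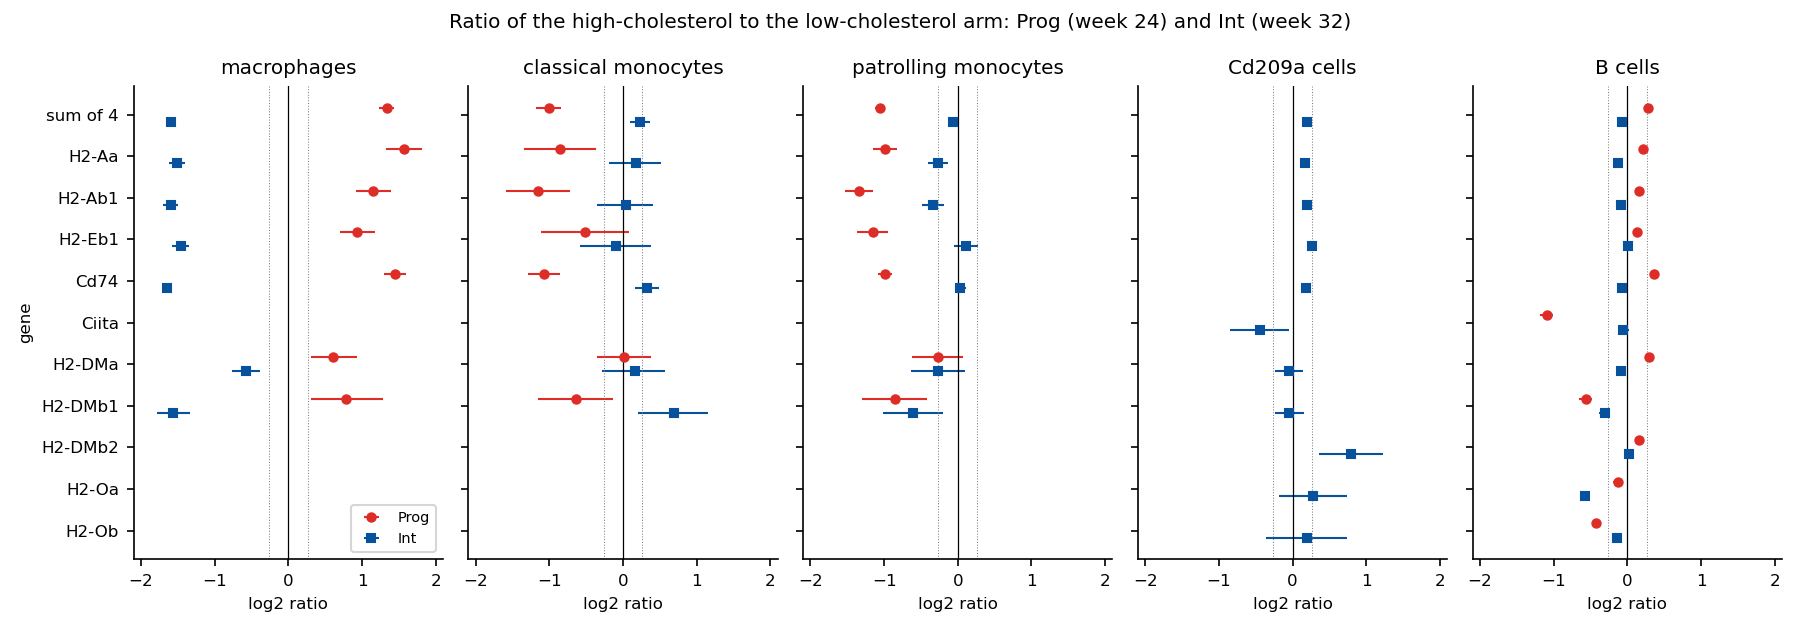
Log2 ratio of the high- to the low-cholesterol arm (x axis) for the sum of 4 genes and each member (y axis) in 5 cell classes, with red circles for Prog, blue squares for Int, bars for exact 95% counting intervals and dotted lines at 1.2-fold. Macrophages lie to the right in Prog and to the left in Int for all 6 genes compared, while B cell values lie nearer to 0, with Ciita in Prog lowest at -1.09.

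Cells outside every gate changed the Prog ratio. Those with no B cell marker UMI and at least 3 UMIs of Csf1r, Adgre1 and the C1q genes, here called ungated myeloid cells, numbered 35, 54, 30 and 54. Their core sum was 13838, 20512, 26756 and 25206 CPM, above that of the gated macrophages in every library, and 15, 31, 20 and 32 of them had a Ccr2 UMI. They differed from the gated macrophages in other genes too. Adgre1 was at 234.5, 271.5, 303.1 and 241.9 CPM against 1097, 965.8, 1186 and 1299 CPM. Ciita was at 100.9, 44.5, 98.9 and 55.6 CPM, and 1, 7, 2 and 6 of them had a Gata6 UMI. Which cell type they are was not tested. With these cells added to the macrophages, a comparison chosen after seeing the data, the core sum was 3693, 3500, 8758 and 2415 CPM. The Prog ratio then turned to -0.077 (95% interval -0.12 to -0.036), with no member at least 1.2-fold higher and 2 lower, while the Int ratio was -1.86 (95% interval -1.89 to -1.83), with 8 members lower. The higher level in Prog thus held for the gated cells and not for this wider set, whereas the lower level in Int held for both.

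These levels of the gated macrophages came from few cells. The median macrophage had 83.3, 198, 153 and 174 CPM of the core genes, far below the summed level, and the highest 10% of cells (5, 42, 7 and 59 cells) held 79.9% to 84.4% of all core UMIs. Ccr2, the chemokine receptor of monocytes, had a UMI in 5, 33, 14 and 18 macrophages, which is 11.6, 7.91, 20.9 and 3.06% of the class. Their core sum was 1945, 12402, 12288 and 21132 CPM, and they held 23.4, 73.5, 89.2 and 68.2% of the core UMIs. Macrophages with no Ccr2 UMI were at 619.8, 555, 532 and 401 CPM. Without the cells that had a Ccr2 UMI, the Prog ratio changed sign to -0.16 and the Int ratio shrank to -0.41, so the direction of the Prog ratio turned on the 5 and 33 Ccr2 cells of its libraries. Such cells had a median of 24135, 30342, 29871 and 28622.5 UMIs against 27384, 21191, 21189 and 20675 UMIs in cells without. Ccr2 cells were thus deeper in P-HC24, I-LC32 and I-HC32 and less deep in P-LC24. The part of depth in their core level was not tested.

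Gata6 and Timd4 divided the class as well. Cells with a Gata6 UMI had a core sum of 81.9, 976, 1759 and 404 CPM and cells without one 3806, 4341, 9698 and 5471 CPM, so the Gata6 cells were lower in all 4 libraries. In Gata6 cells alone the ratios were larger, 3.58 in Prog and -2.12 in Int. The Prog value rests on only 78 core UMIs in the 30 Gata6 cells of P-LC24. Their level lay near the 59.98 CPM of T cells in that library, so the size of this ratio is uncertain. Cells with a UMI of Timd4, a receptor of long-lived resident macrophages, were at 50.1, 1149, 2132 and 271 CPM and cells without at 864, 2448, 4356 and 2718 CPM. Ciita was higher in Ccr2 cells, at 19.4, 20.3, 90.5 and 48.7 CPM against 0.949, 1.68, 4.88 and 1.16 CPM in the others. These values rest on 2, 21, 40 and 24 against 1, 14, 6 and 14 UMIs. By Gata6, Ciita was at 0, 4.22, 7.84 and 1.32 CPM in cells with a UMI and 14.7, 2.43, 90.9 and 11.9 CPM without. By Timd4, Ciita was lower in cells with a UMI except in P-HC24 (4.53 against 3.11 CPM). In P-HC24 Ciita thus went the other way from the core sum in both splits, on few UMIs. The part of each kind of cell in the ratios was not tested.

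**Figure D3:**
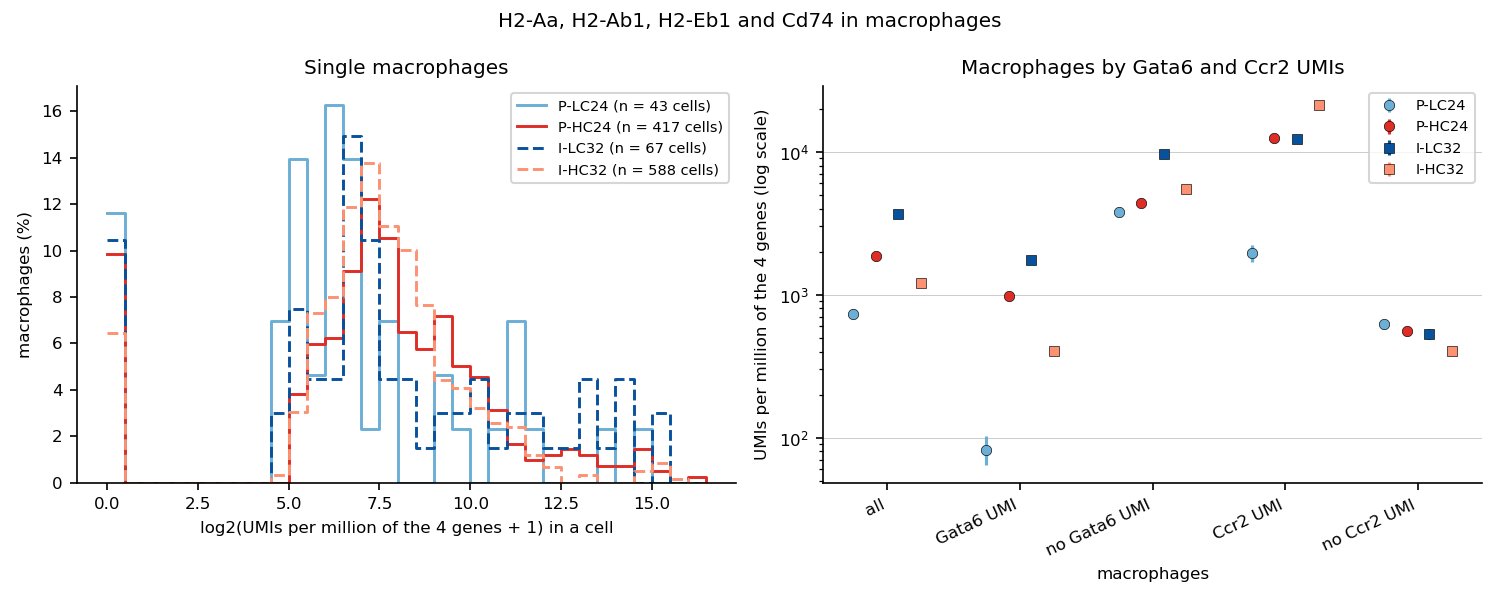
Left, share of macrophages (y axis, %) by their own core level (x axis, log2 of CPM + 1), 1 line per library. Right, summed core level (log scale, bars for 95% counting intervals) of all macrophages and of those with or without a Gata6 or Ccr2 UMI: in cells with no Ccr2 UMI the 4 libraries lie between 401 and 620 CPM.

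B cells were the most numerous cells in every library, and their RNA could reach other droplets. Of macrophages, 75.3% to 79.1% had no UMI of Cd79a (a chain of the B cell receptor) or Ms4a1 (CD20). The Cd79a and Ms4a1 UMIs that were there equalled a B cell share of 0.327% to 0.647% of macrophage UMIs. RNA of B cells in that amount would carry 6.51, 6.17, 2.01 and 6.74% of the core UMIs counted in macrophages. In macrophages with no UMI of either marker the ratios were 1.64 in Prog and -1.13 in Int, so the direction was the same without them. For H2-DMb1 the share was below 1% in every library and for H2-DMa 1.12, 1.78, 0.776 and 1.27%. For H2-DMb2, a gene of high level in B cells, it was 46.2, 50.3, 25.9 and 72.2%, and for H2-Oa 47.5, 30.3, 17.8 and 40.6%. The few UMIs of these genes in macrophages thus hold a sizeable B cell equivalent and are not read as expression.

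The same calculation in T cells, which should hold little class II RNA, gave 81.2, 67.2, 37.1 and 35.4% of the core UMIs. The rest of them was not covered by B cell RNA of this amount. H2-DMa was at 21.2, 34.3, 27.4 and 30.8 CPM and H2-Ob at 14.9, 24.6, 13.4 and 23.1 CPM in T cells, with B cell equivalents of only 4.35, 4.83, 3.83 and 6.75% and 7.96, 5.26, 6.41 and 7.08%. H2-DMb1, by contrast, was at 0.910 to 4.60 CPM there. Within T cells the core sum was higher in the high-cholesterol arm in Prog (1.10, 95% interval 0.95 to 1.25) and Int (1.07, 95% interval 0.98 to 1.16), where the Cd79a level was higher as well (12.2 against 5.80 CPM and 15.1 against 7.33 CPM).

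**Figure D4:**
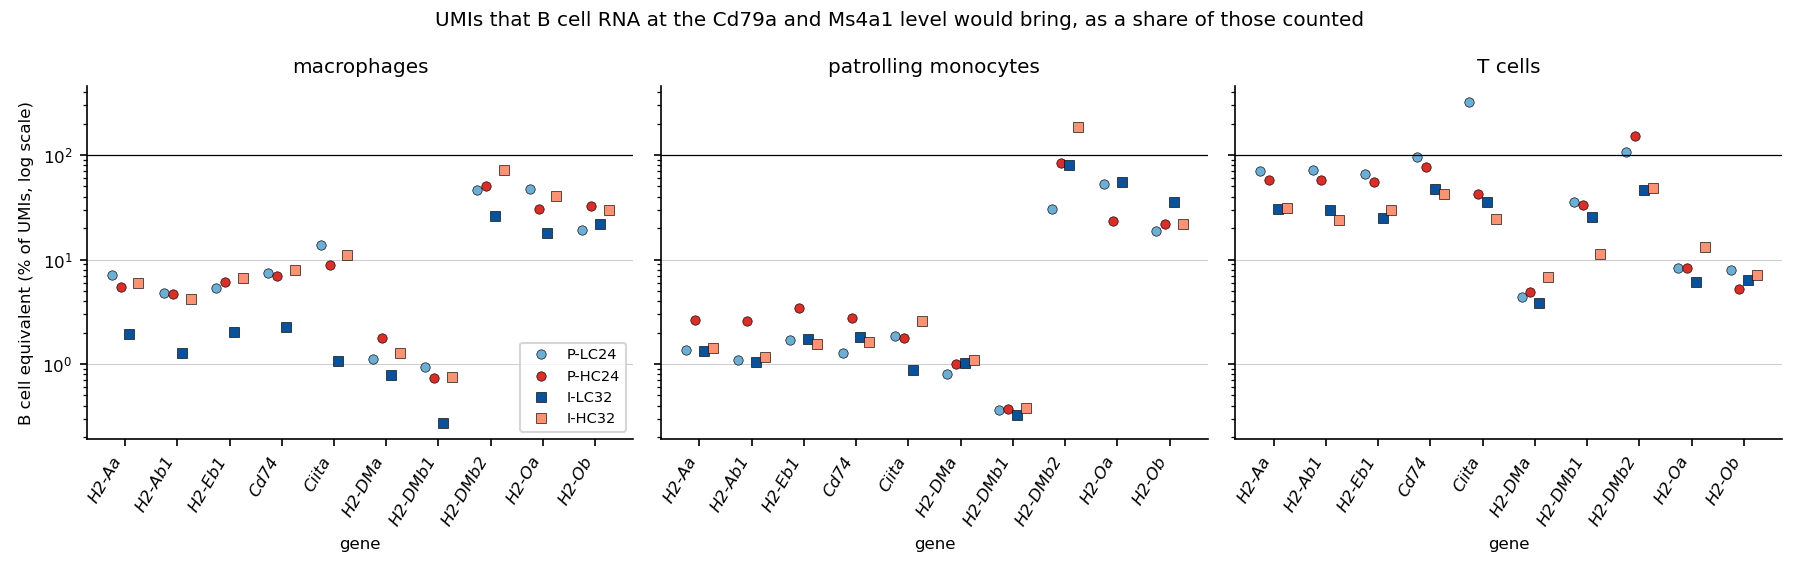
UMIs of each member that B cell RNA at the measured Cd79a and Ms4a1 level would bring (y axis, % of those counted, log scale, with a line at 100%), by gene (x axis) in macrophages, patrolling monocytes and T cells, 1 point per library. The classical chains, Cd74 and the editor genes H2-DMa and H2-DMb1 lie below 10% in macrophages, whereas H2-DMb2 lies at 25.9% to 72.2%.

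Monocytes of the high-cholesterol arm held less class II RNA at week 24. In patrolling monocytes, the blood monocytes that scan vessel walls, the core sum was 4302, 2066, 5864 and 5603 CPM, a log2 ratio of -1.06 (95% interval -1.13 to -0.99) in Prog and -0.066 (95% interval -0.12 to -0.0091) in Int. The median single cell was at only 437, 225, 365 and 364 CPM and the 90th percentile at 14076, 3176, 16240 and 31073 CPM. Much of each sum thus came from few cells. The gate was mixed, with a Ccr2 UMI in 42, 34.9, 57.9 and 32.8% of its cells. All 6 members compared were lower in Prog, where 43.9% of 3871 genes were lower and 18.4% higher. H2-Ab1 was at 687, 271, 952 and 756 CPM, with -1.34 (95% interval -1.53 to -1.16) in Prog, the largest of the 6. Cd74 was at 2377, 1199, 3048 and 3124 CPM, with -0.99 (95% interval -1.08 to -0.90). For H2-DMa the interval included 0 (-0.27, 95% interval -0.62 to 0.073). In Int, H2-Aa, H2-Ab1, H2-DMa and H2-DMb1 were lower, where 41.3% of 3011 genes were lower and 18.6% higher, a share of members not far above that of all genes. The Int ratio of the core sum lay near 0 and changed sign under 7 of 12 alternatives. Gata6 was at 1.84, 36.1, 17.3 and 66.4 CPM in these cells, higher in the high-cholesterol arm at both weeks, and in cells with no Gata6 UMI the ratios were -0.87 in Prog and 0.63 in Int.

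In classical monocytes, the Ly6c2-positive monocytes that enter inflamed tissue, the core sum was 1234, 613.3, 1926 and 2263 CPM, with -1.01 (95% interval -1.18 to -0.84) in Prog and 0.23 (95% interval 0.10 to 0.36) in Int. The median single cell was at 226.6, 166.6, 182.6 and 587.1 CPM. Flt3 was at 79.7, 14.7, 20.2 and 14.8 CPM, with a UMI in 41.3, 19.2, 15.2 and 14.3% of the cells. The gate of P-LC24 thus differed in make-up, and its part in the Prog ratio was not tested. In Prog, 5 of 6 members compared were lower, against 34.6% of 2288 genes (24.0% were higher), the interval of H2-Eb1 included 0 (-0.51, -1.11 to 0.083), and H2-DMa was the exception at 0.014 (95% interval -0.35 to 0.38). Cd74 was at 790.1, 376, 1200 and 1506 CPM, with -1.07 (95% interval -1.29 to -0.86) in Prog and 0.33 (95% interval 0.16 to 0.49) in Int. H2-DMb1 was at 125, 80.3, 122 and 197 CPM, with -0.64 (95% interval -1.15 to -0.13) and 0.69 (95% interval 0.21 to 1.15). These were the only members higher in Int, where 20.5% of 2507 genes were higher and 23.8% lower. With the highest 10% of cells left out 1 member was lower in Prog, and the core ratio in Prog was -2.75 under stricter gates and -2.14 in cells with no Cd79a or Ms4a1 UMI. I-HC32 gave 21 cells of this class. From week 24 to week 32 the core sum was higher in both arms, by 1.88 in the high- and 0.64 in the low-cholesterol arm on the log2 scale in classical monocytes, and by 1.44 and 0.45 in patrolling monocytes. B cell RNA at the Cd79a and Ms4a1 level would carry 1.31% to 2.76% of the core UMIs of patrolling and 2.87% to 9.77% of those of classical monocytes.

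In summed UMIs, Cd209a cells differed little between the arms at week 32. Their core sum was 48170 CPM in I-LC32 and 55268 CPM in I-HC32, a log2 ratio of 0.20 (95% interval 0.18 to 0.22), under 1.2-fold. With every cell weighted alike the ratio was 0.36, past 1.2-fold, and 6 members were higher. All 10 members could be compared. H2-DMb2 was higher, at 122 and 210.4 CPM (0.79, 95% interval 0.36 to 1.23), as was H2-Oa (0.28, 95% interval -0.18 to 0.74), whose interval included 0. These were 2 of 10 members against 22.2% of 1794 genes. Ciita was lower, at 221.5 and 163 CPM (-0.45, 95% interval -0.85 to -0.05), 1 of 10 against 19.4%. Neither share lay above that of all genes. The core sum of Cd209a cells in single cells ranged from 0 to 87266 CPM in I-LC32, with a median of 45835, and from 19814 to 141063 CPM in I-HC32, with a median of 55639.

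The rarer dendritic cells are given as values. Cells with Xcr1 or Clec9a (cDC1, which cross-present to CD8 T cells), 5 to 10 per library, held H2-Aa at 5654 to 9320 CPM, Cd74 at 12519 to 20080 CPM and Ciita at 167 to 364 CPM. Mature dendritic cells (Ccr7 and Fscn1), 19 cells in I-LC32, held H2-Aa at 3668 CPM and Cd74 at 10703 CPM but Ciita at 12.4 CPM, on 3 UMIs, and H2-DMb1 at 28.9 CPM, on 7 UMIs. H2-Eb2 was at 152.5 CPM there, on 37 UMIs, above its level in B cells (26.4 to 53.4 CPM). Plasmacytoid cells (Siglech and Bst2), 11 in P-LC24, held H2-Aa at 1561 CPM and H2-DMa at 408 CPM. An H2-Ob UMI was seen in 0 of these 11 cells, which allows a share of cells with a UMI of up to 27.3%.

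B cells of the high-cholesterol arm held less Ciita, H2-DMb1 and H2-Ob RNA in Prog and less H2-DMb1 and H2-Oa RNA in Int, while H2-Aa, H2-Ab1 and H2-Eb1 stayed under 1.2-fold in both. The core sum was 14677, 17765, 18057 and 17225 CPM, with 0.28 (95% interval 0.27 to 0.28) in Prog and -0.068 (95% interval -0.073 to -0.063) in Int. P-LC24 was the lowest library and the other 3 lay within 17225 to 18057 CPM. In Prog, Cd74 (7921, 10163, 10759 and 10269 CPM, 0.36, 95% interval 0.35 to 0.37) and H2-DMa (277, 342, 312 and 294 CPM, 0.30, 95% interval 0.26 to 0.35) were higher. That is 2 of 10 members against 15.2% of 6573 genes. Ciita (-1.09, 95% interval -1.18 to -1.01), H2-DMb1 (96.9, 65.6, 90.7 and 73.2 CPM, -0.56, 95% interval -0.65 to -0.48) and H2-Ob (358, 267, 256 and 232 CPM, -0.42, 95% interval -0.47 to -0.38) were lower, 3 of 10 against 44.5%. In Prog the share of lower members thus lay below that of all genes, and the share of higher members not far above it. The coactivator was at 0.468 of its low-cholesterol level in the library where its target Cd74 was higher. In Int, H2-DMb1 (-0.31, 95% interval -0.38 to -0.24) and H2-Oa (126, 115, 132 and 88.3 CPM, -0.57, 95% interval -0.63 to -0.52) were lower, 2 of 10 against 7.24% of 7375 genes, and no member was higher, where 13.2% of genes were.

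B cells were mixtures of B-1-like cells (Zbtb32 or Bhlhe41 and no Fcer2a) and follicular cells (Fcer2a), and the mixture differed between libraries, with 337, 875, 965 and 1260 B-1-like and 1708, 1341, 1577 and 961 follicular cells. In CPM, each of the 10 members was lower in B-1-like than in follicular cells in all 4 libraries, with log2 ratios of -1.57 to -0.049. Only for H2-DMb2 in I-LC32 did the interval include 0 (-0.056, -0.12 to 0.0054). B-1-like cells were deeper, with a median of 13233, 13308, 12874 and 12943.5 UMIs per cell against 5372.5, 5079, 5013 and 5623 in follicular cells. The order is therefore one of shares of UMIs and not of UMIs per cell. How many of all genes were lower in B-1-like cells was not counted. H2-Oa was at 64.2, 62.5, 91.4 and 63.7 CPM in B-1-like and 159.5, 186, 193 and 149.5 CPM in follicular cells. H2-Ob was at 182, 180.4, 173 and 170.4 CPM against 446, 387, 357 and 353.5 CPM. Cd74 was at 6672, 9116, 10272 and 9780 CPM against 8575, 11571, 11476 and 11479 CPM. H2-Oa and H2-Ob showed larger differences (-1.57 to -1.04) than H2-Aa, H2-Ab1, H2-Eb1 and Cd74 (-0.57 to -0.049). H2-DMb1 (-1.23 to -0.60) and Ciita (-1.13 to -0.43) reached differences of like size in some libraries. H2-DMa and H2-DMb2 lay at -0.46 to -0.056.

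Within the subsets, the Prog ratio of the core sum was 0.36 in B-1-like and 0.35 in follicular cells, both above the 0.28 of all B cells, and the Int ratio was -0.070 and 0.0031. Ciita was lower in Prog in both, with -0.65 (95% interval -0.85 to -0.44) and -1.06 (95% interval -1.20 to -0.91). H2-Ob was at -0.011 (95% interval -0.12 to 0.10) in B-1-like and -0.20 (95% interval -0.27 to -0.14) in follicular cells in Prog, both under 1.2-fold, so its lower level in all B cells was not seen in full in either subset. H2-DMb1 was lower in follicular cells (-0.32, 95% interval -0.45 to -0.18) and at -0.13 (95% interval -0.34 to 0.092) in B-1-like cells. H2-Oa was lower in Int in both, with -0.52 and -0.37. How far the mixture of subsets bears on the ratios of all B cells was not tested beyond these values. The remaining class II gene H2-Eb2, close in sequence and position to H2-Eb1, was lower in B cells in Prog (-0.70, 95% interval -0.82 to -0.59) and Int (-0.75, 95% interval -0.86 to -0.64).

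The balance of H2-DMb1 and H2-DMb2 UMIs differed by cell type. H2-DMb1 made up 92.9%, 91.7%, 95.8% and 94.8% of the H2-DMb1 and H2-DMb2 UMIs in macrophages, 92.3 to 98.7% in classical monocytes, 95.7 to 98.9% in patrolling monocytes and 78.0 to 86.4% in Cd209a cells. In follicular B cells it made up 17.4 to 22.8% and in B-1-like cells 11.4 to 16.6%. The myeloid and B cell ranges lay far apart, and the B-1-like value lay below the follicular one in each library. Mature dendritic cells of I-LC32 lay nearer to the B cells, at 31.8% (95% interval 13.9 to 54.9), on 22 UMIs. The annotated ends of these neighbouring genes share sequence: 126 of 540 windows of 90 bases in the last 500 bases of H2-DMb1 transcripts also occur in H2-DMb2, and 0 of 411 the other way. How reads from the shared stretch were assigned is not given in the sources used here, so both values are uncertain to that extent.

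The inhibitor pair had its own balance. As 3′ counts, these balances compare cell classes and not the levels of the paired genes. H2-Ob UMIs outnumbered H2-Oa UMIs 1.95 to 2.85 times in B cells, whereas the ratio was 0.388 to 0.733 in Cd209a cells and 1.86 to 4.88 in T cells. The editor gene H2-DMa made up 7.76 to 18.9% of H2-DMa and Cd74 UMIs in macrophages, 12.7 to 33.4% in classical monocytes, 4.08 to 8.40% in patrolling monocytes, 2.78 to 3.38% in B cells and 15.2 to 43.5% in T cells. Among macrophages this share was highest in P-LC24 and lowest in I-LC32, the libraries of lowest and highest Cd74.

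**Figure D5:**
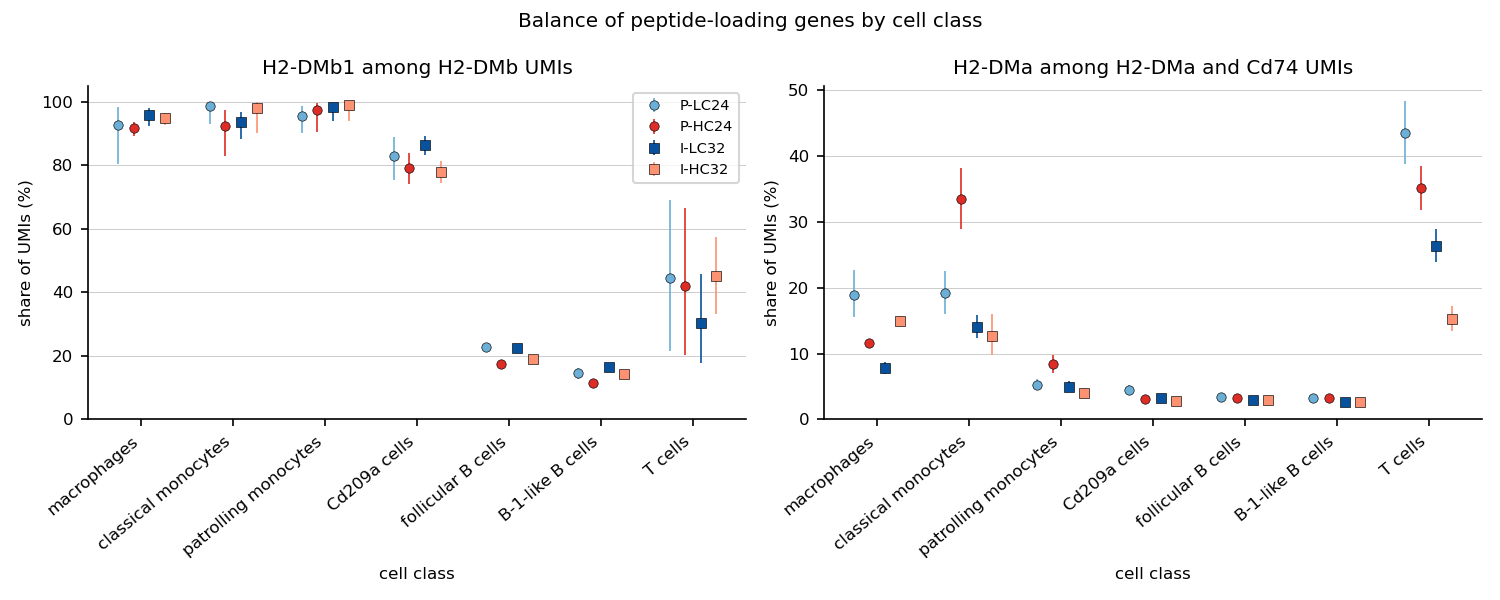
Left, H2-DMb1 as a share of H2-DMb1 and H2-DMb2 UMIs, and right, H2-DMa as a share of H2-DMa and Cd74 UMIs (y axes, %), by cell class (x axis), with 1 point per library and exact 95% intervals. Macrophages, monocytes and Cd209a cells lie above 78% on the left and both B cell subsets below 23%.

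Shares of cells with a UMI were also read at equal depth. Thinned to 3000 UMIs per cell, an H2-Aa UMI was found in 99.3 to 99.6% of B cells, 13.9, 24.5, 31.3 and 16.7% of macrophages, 17.6 to 27.3% of patrolling monocytes and 4.62 to 9.92% of T cells. A Cd74 UMI was found in 25.6, 38.2, 46.3 and 35.1% of macrophages and 8.92 to 27.2% of T cells. In I-HC32 the macrophage share for H2-Aa was 16.7% beside 9.92% in T cells, the nearest of the 4 libraries to that background. H2-DMa was found in 11.6, 26.0, 38.8 and 26.8% of macrophages and 6.05 to 11.0% of T cells. H2-Ob was found in 51.6 to 66.2% of B cells, in 0 to 2.40% of macrophages and in 3.79 to 7.74% of T cells, so that its macrophage share lay below that of T cells in each library (0 of 43 cells in P-LC24 allows up to 6.98%).

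The other genes of antigen presentation are given by pathway, first in macrophages, where 17.0% of all genes compared were higher in Prog and 14.8% in Int, and 45.3% and 35.1% were lower, with median log2 ratios of -0.20 and -0.13. Of the MHC class I pathway, 8 of 9 genes were higher in Prog and 1 of 9 in Int, where 5 were lower, with medians of 0.67 and -0.45. Tap1, a subunit of the peptide transporter, was at 1.14 and -1.45 on the log2 scale. H2-D1, a class I heavy chain, was higher in both (0.70 and 0.36). Of 6 genes of the interferon gamma response, 3 were higher and 1 lower in Prog, and 4 were lower in Int, with medians of 0.14 and -0.40. Irf1, a transcription factor induced by interferon, was at 0.60 and -0.38. Jak1, the most abundant of this list, stayed under 1.2-fold in both. Of 12 factors that act on class II promoters, 7 could be compared in Prog, where 4 were lower and none higher, and 8 in Int, where 5 were lower and Rfxap was higher, with medians of -0.73 and -0.35. Creb1 (-1.15 and -0.29, with 0 inside its Int interval of -0.67 to 0.10) and Irf8 (-1.01 and -0.82) were lower in both, and Spi1, the myeloid factor PU.1 and the most abundant of them, was at 0.12 and -0.17.

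Proteases and ligases of the endosome split. Of 9, Ctsl and Ctsh were higher and 5 lower in Prog, and Ctsl was higher and 4 lower in Int, with medians of -0.34 and -0.18. Ctsl, an endosomal protease, was higher in both comparisons (0.33 and 0.35), while Ctsb, Ifi30 (the thiol reductase GILT), Marchf8 and Marchf1, the ligase that removes class II from the surface, were lower in both. Both intervals of Marchf8 included 0 (-0.80 to 0.26 in Int). Marchf1 was at -1.12 and -0.38, and Ctsd, the most abundant, stayed under 1.2-fold. Of 6 costimulation genes 3 could be compared, none passed 1.2-fold in Prog, and in Int Cd80 and Cd86 were higher and Cd40 lower, with medians of -0.15 and 0.32. H2-Ea and H2-Eb2 had too few UMIs in macrophages.

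In patrolling monocytes, 18.4% of all genes compared were higher in Prog and 18.6% in Int, and 43.9% and 41.3% were lower. Class I genes were higher for 2 and lower for 1 of 8 in Prog and higher for 2 and lower for 4 of 6 in Int, with H2-D1 higher in both and medians of 0.13 and -0.40, beside -0.19 and -0.16 for all genes. Interferon gamma response genes were lower for 3 of 6 and 4 of 5, Ifngr1 and Ifngr2 in both, and promoter factors were lower for 3 of 4 each time, Creb1 and Irf8 in both, with medians of -0.37 and -0.80 for the former and -0.47 and -0.59 for the latter. Of 8 processing genes, 2 were higher each time, Ctsl and Ctsd, and 4 and 2 were lower, Lgmn and Marchf1 in both, with medians of -0.19 and -0.16. Ctsd was at 0.96 and 2.59, in the same libraries where Gata6 was higher. Of the costimulation genes, Cd80 was higher in both, with 0 inside its Int interval (-0.11 to 0.66), and Cd274 was lower in Prog, with medians of 0.20 and 0.082.

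In classical monocytes, 24.0% of all genes compared were higher in Prog and 20.5% in Int, and 34.6% and 23.8% were lower, with medians of -0.065 and -0.016. Class I was higher for 2 of 6 in Prog and lower for 1 of 7 in Int, with medians of 0.13 and 0.038. Promoter factors changed for 0 of 2 and were higher for 1 of 3, interferon gamma genes were lower for 1 of 4 and then 1 higher and 1 lower of 5, and costimulation was lower for 1 of 2 and then for 0 of 2, counts too small to set beside the shares of all genes. Processing genes were higher for 3 and lower for 4 of 8 in Prog and higher for 5 of 8 in Int, with medians of -0.096 and 0.32. Ctsl was higher in both (0.91 and 0.32, with 0 inside its Int interval of -0.38 to 0.98), and Ctss, the protease that trims Cd74 and the most abundant, was at -0.59 and 0.32.

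In B cells, 15.2% of all genes compared were higher in Prog and 13.2% in Int, and 44.5% and 7.24% were lower, with medians of -0.21 and 0.040. Promoter factors were lower for 6 of 9 in Prog, with Pax5, the B cell identity factor, at -0.90, and higher for 1 of 10 in Int, Prdm1, with medians of -0.45 and -0.025. Interferon gamma genes were lower for 4 of 6 in Prog and higher for 2 and lower for 2 in Int, with medians of -0.36 and 0.0026. Class I genes were higher for 3 and lower for 1 of 9 in Prog and for none in Int, where all 9 stayed under 1.2-fold, with medians of 0.19 and 0.048. Processing genes were higher for 3 and lower for 2 of 7 in Prog and higher for 2 of 7 in Int, with medians of 0.19 and 0.021, Ifi30 higher in both and Marchf1 at -1.16 and -0.12. Of 6 costimulation genes, Cd80 and Cd274 were higher and Icosl was lower in both, and Cd86 and Cd40 were lower in Prog, with medians of -0.038 and 0.067. In Cd209a cells in Int, where 22.2% of genes were higher and 19.4% lower, promoter factors were higher for 1 of 3, interferon gamma genes for 2 of 3, processing genes for 1 of 6 and costimulation genes for 1 of 2, and class I was lower for 1 of 6.

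Over 29 profiles of a class in a library, the genes outside the 10 whose log2(CPM + 1) was most like the mean of H2-Aa, H2-Ab1, H2-Eb1 and Cd74 were Cd83 (Pearson r 0.924), Fgd2 (0.905), Gdi2 (0.905), Slamf9 (0.898) and Hepacam2 (0.897). Cd83, a surface protein of mature dendritic cells and B cells, had a median of 396 CPM in Cd209a cells, 394 CPM in B cells and 38.8 CPM in macrophages. Of the members themselves, Ciita was at 0.942, H2-DMb1 at 0.869, H2-DMa at 0.838, H2-DMb2 at 0.751, H2-Ob at 0.616 and H2-Oa at 0.599. The profiles share libraries, depth and cells, so these values describe likeness only.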

How the data were processed

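Each of the 4 libraries came as a matrix of UMI counts that the authors made with Cell Ranger 9.0.1 on a GRCm39 reference and deposited for the barcodes called as cells, before the ambient RNA correction and Seurat 5.3 filters of the study. No other columns of per-sample values were left unused (0). Barcodes with under 500 UMIs, under 300 genes or over 10% mitochondrial UMIs were dropped. Scrublet (scanpy 1.11.5) then removed the highest-scoring 0.8% per 1000 cells. Cells were gated on raw marker UMIs without class II genes. UMIs were summed per class and library and given as CPM with exact Poisson intervals, ratios with exact conditional intervals and shares with Clopper-Pearson intervals at 95%, which cover counting error only. A count of 0 allows up to 3 counts. Classes needed 20 cells, and compared genes 100 UMIs over both libraries and a UMI in 10% of cells of either. B cell equivalents scale the mean B cell profile of a library to the Cd79a and Ms4a1 UMIs of a class. Whether counting used strand is not given in the sources used here, so reads in the overlap of H2-Aa and H2-Eb1 cannot be assigned with certainty.

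The scripts ran on Python 3.11.15 with pandas 2.3.3, NumPy 2.4.6 and SciPy 1.17.1, and figures came from matplotlib 3.10.9. The code of the ratio intervals was run on simulated independent Poisson counts. Such counts have the error that the intervals assume, so the run says nothing of counts clustered in few cells. All 10 members are named. Of the lists for promoter factors, interferon gamma response, processing, costimulation, class I and other class II genes, the text names those past 1.2-fold in the same direction in Prog and Int of a class and the most abundant one, and the other list genes named were named after their values were seen. The members, lists and gates were chosen with earlier results of these data known. Alternatives were other filters, gates, denominators and cell subsets, and those for patrolling monocytes, Ccr2, Gata6, ungated myeloid cells, B cell subsets and the highest 10% of cells were chosen after seeing the data. The values of 1 list gene are not reported here. Mice were pooled, so the spread between animals is unknown.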

Additional observations from a re-analysis of the deposited data

Results flagged for a closer look

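Gated macrophages stood out because every member compared was higher in the high-cholesterol arm at week 24 and lower at week 32. On the log2 scale the Prog and Int ratios were 1.565 and -1.512 for H2-Aa, 1.152 and -1.597 for H2-Ab1, 0.9374 and -1.462 for H2-Eb1, 1.449 and -1.642 for Cd74, 0.6134 and -0.5757 for H2-DMa, and 0.7797 and -1.559 for H2-DMb1. For the core sum they were 1.338 and -1.587, and with the ungated myeloid cells added -0.077 and -1.86, so the opposite turn was not seen in the wider set. The difference between Prog and Int was not tested, since each arm gave 1 library per week.

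In classical monocytes the opposite turn was seen for Cd74 (-1.07 in Prog and 0.3273 in Int) and H2-DMb1 (-0.6398 and 0.6878). It was not tested either.

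Cells that passed no gate also held class II RNA, at a core sum of 8709 CPM in P-LC24 and 14502 CPM in P-HC24, then 15605 CPM in I-LC32 and 15406 CPM in I-HC32. These levels lay above those of macrophages and of both monocyte classes in the same libraries. Those with 5 or more B cell marker UMIs held 58.7%, 53.6%, 61.8% and 71.6% of these core UMIs, and those with no B cell marker UMI and 3 or more macrophage marker UMIs held 25.1%, 25.8%, 16.4% and 12.8%, at 13838 to 26756 CPM.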

How the results depend on the processing

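The core log2 ratio kept its direction under every alternative that gave a value in classical monocytes in Prog and Int, in Cd209a cells in Int, in patrolling monocytes and B cells in Prog and in macrophages in Int. In macrophages in Prog it kept it under 12 of 14 and turned to -0.16 without cells with a Ccr2 UMI and to -0.077 with the ungated myeloid cells added, which gave -1.86 in Int. In patrolling monocytes in Int, where it lay near 0, it turned under 7 of 12, and in B cells in Int under 2 of 11. The values that moved by more than the counting interval follow, with the cause not tested. With a mitochondrial limit of 5%: macrophages 1.504 in Prog and -1.69 in Int, classical 0.062 in Int, patrolling 0.048 in Int, B cells 0.33 in Prog and -0.032 in Int. With a limit of 20%: macrophages -1.53 in Int, patrolling 0.059 in Int, B cells -0.074 in Int. With no doublet removal: macrophages -1.63 in Int, classical 0.099 in Int, patrolling 0.013 in Int. With stricter gates: macrophages 1.48 in Prog and -1.65 in Int, classical -2.75 in Prog, patrolling -0.42 in Int, Cd209a 0.25 in Int. With only cells without Cd79a and Ms4a1 UMIs: macrophages 1.64 in Prog and -1.13 in Int, classical -2.14 in Prog, patrolling -1.31 in Prog, Cd209a 0.30 in Int. With the B cell equivalent subtracted: macrophages -1.66 in Int. With every cell weighted alike: macrophages 0.46 in Prog, patrolling 0.18 in Int, Cd209a 0.36 in Int, B cells 0.28 in Prog and -0.089 in Int. With totals without immunoglobulin and mitochondrial genes: B cells 0.30 in Prog and -0.082 in Int. With unscaled UMIs per cell: macrophages 1.07 in Prog and -1.81 in Int, patrolling -0.95 in Prog and 0.37 in Int, Cd209a 0.17 in Int, B cells 0.54 in Prog and 0.19 in Int. With values relative to the median of all genes: macrophages 1.54 in Prog and -1.46 in Int, patrolling -0.87 in Prog and 0.093 in Int, B cells 0.48 in Prog and -0.11 in Int. With the highest 10% of cells left out: macrophages 1.11 in Prog and -1.91 in Int, classical -1.24 in Prog, patrolling -2.50 in Prog and -0.20 in Int, Cd209a 0.17 in Int, B cells 0.27 in Prog and -0.063 in Int. With only cells without a Ccr2 UMI the macrophage ratio was -0.16 in Prog and -0.41 in Int. With only Gata6 cells it was 3.58, on 78 core UMIs in P-LC24, and -2.12. Patrolling monocytes with no Gata6 UMI gave -0.87 in Prog and 0.63 in Int. Follicular cells gave 0.35 in Prog and 0.0031 in Int, and B-1-like cells 0.36 in Prog. Members at least 1.2-fold higher in macrophages in Prog numbered 0 to 9 and lower in Int 4 to 9. Lower members in patrolling monocytes in Int numbered 0 to 5 and in classical monocytes in Prog 1 to 6, and higher members in B cells in Prog 0 to 6 and in Cd209a cells in Int 1 to 6. Of 220 shares of cells, 159 moved beyond their interval with thinning. Classical monocytes in Int gave no value under stricter gates, without Cd79a and Ms4a1 UMIs or without the highest 10% of cells, and Cd209a cells gave none in Prog, with under 20 cells. No paired analysis was possible because each condition is 1 pooled library, so no spread between libraries could be estimated.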
